A study of Mus musculus with 18 samples.

Results

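The Bcl2 family was followed in single blastomeres of parthenogenetic 2-cell mouse embryos through 10 genes chosen by symbol, namely the pro-survival Bcl2, Bcl2l1, Bcl2l10 and Mcl1, the effectors Bax, Bak1 and Bok, and the BH3-only genes Bid, Bik and Bbc3. Of these 10 genes, 9 were measured by 1 probe each, out of 30176 genes in all, and Bax was not analysed here because the annotation used gave no probe with that symbol. Metaphase II oocytes of B6C3F1 females (an F1 hybrid mouse) were activated with strontium while latrunculin, an actin inhibitor, kept the second polar body inside, which yields a diploid embryo that has no paternal genome. The embryos were grown for 20 h in KSOM(aa), a simplex medium with amino acids, and were taken apart at the 2-cell stage, 1 day after activation, whereupon each blastomere was lysed alone and hybridised to its own Affymetrix Mouse Transcriptome Array. The labels gave 9 embryos (numbers 1 to 5 and 7 to 10), each with sister blastomeres a and b, and all 18 blastomeres shared strain, activation and medium. No fertilised or unactivated embryos were analysed here, so the comparisons are between sisters and non-sisters and between embryos.

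Bcl2 proteins decide whether the outer mitochondrial membrane stays intact. Pro-survival members hold the effectors Bax and Bak1 in check, BH3-only members relieve that restraint or activate the effectors directly, and an opened membrane releases cytochrome c, which starts the caspase cascade. Oocytes are known to carry maternal mRNA of several family members into the cleavage stages, and fragmentation of early embryos has long been studied as a form of apoptosis.

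Values are log2 signals normalised between arrays, and 5.80 served as the background threshold for a gene's mean. It is the 95th percentile of such means among 1443 chemosensory receptor and Y-linked genes, whose mRNAs are not anticipated in these cells. This left 12885 genes, 42.7% of all genes measured. Array medians lay between 4.86 and 5.26, the highest being that of blastomere 1a. All 10 oocyte and 2-cell markers were above background, with means between 7.87 and 17.44, against 2 of 11 measured cumulus and granulosa markers (Has2 and Amhr2), 3 of 6 blood and oviduct markers (Pecam1, Epcam and Wfdc2) and 1 of 8 Y-linked genes (Sry, 7.82), although the embryos have no Y chromosome. The part of other cells in the member signals was not tested.

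The family fell into 6 members above background (Bcl2l1, Bcl2l10, Mcl1, Bok, Bid and Bik) and 3 below it (Bcl2, Bak1 and Bbc3), where 42.7% of all genes were above it. The means of Bok (6.22), Bid (5.97) and Bik (6.46) lay below that of Sry (7.82). A mean above the threshold therefore does not by itself show the mRNA of these genes. None of the 6 differed between embryos beyond the spread of sisters after adjustment, while 749 of the 12885 genes did (5.81%, limma moderated F test, Benjamini-Hochberg adjusted p under 0.05). A plain analysis of variance called none of the 6 either, and 353 of all genes (2.74%). Bcl2l10 alone of the 6 had an unadjusted p under 0.05 in limma (16.7%, against 22.6% of all genes). Sisters lay closer together for the members than for the genes at large. The median of the 6 members was an interblastomere ratio of 1.24 between sisters and 1.30 between non-sisters, where the median gene above background had 1.45 between sisters and 1.56 between non-sisters. This ratio is the higher over the lower linear signal of a pair, averaged as a geometric mean over the 9 sister pairs or the 144 non-sister pairs, so it is never under 1. No test was made of the difference between the members and the other genes, and it is not claimed as particular to them. The members were also not matched to the other genes by signal. The sister SD that limma's intensity trend gives at a member's signal was 0.31 to 0.37 for Bid, Bok and Bik. It was 0.15 for Bcl2l10, against 0.53 for Bcl2l1 and Mcl1.

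**Figure D1:**
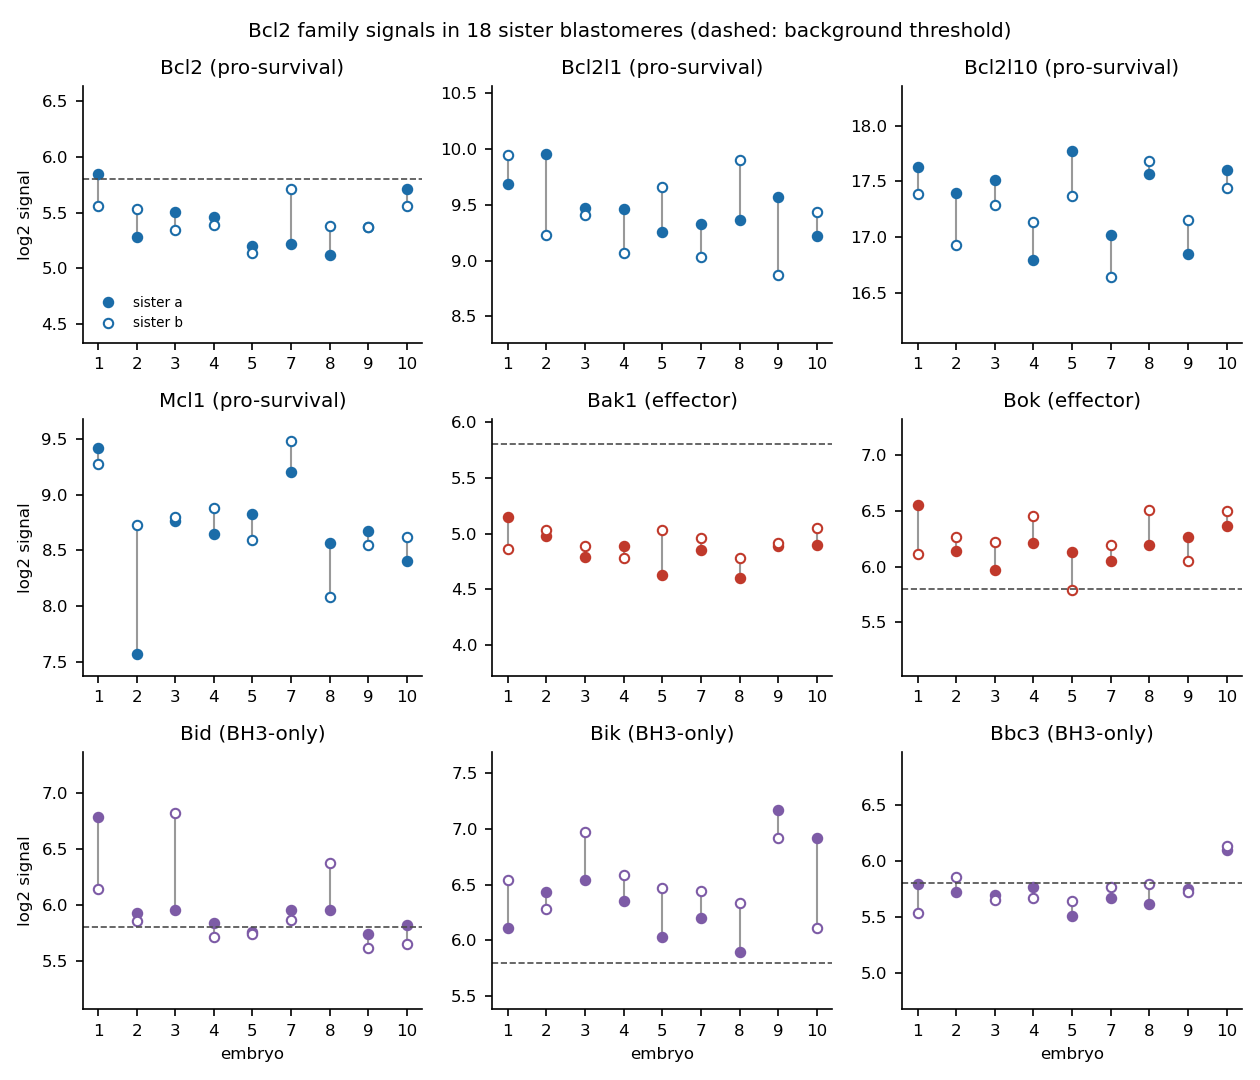
Log2 signal (y axis, each panel spanning the same number of log2 units) of the 9 measured Bcl2 family genes in sisters a (filled) and b (open) of each embryo (x axis), joined by a line, with the background threshold of 5.80 dashed where it lies within the panel. Mcl1 in embryo 2 has the longest line of all panels, Bcl2l10 is lowest in embryo 7, and all Bak1 values lie under the threshold.

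Bcl2l10 encodes a family member that is prominent in oocytes and has been described both as a survival factor and as an antagonist of other members. Its signal was 16.64 in the lowest blastomere (7b), 17.38 in the median and 17.77 in the highest (5a), with a mean of 17.29 ± 0.33 (SD, n = 18). The embryo means ordered as 7, 4, 9, 2, 3, 1, 10, 5 and 8, between 16.83 in embryo 7 and 17.62 in embryo 8, a 1.74-fold range. Both sisters of embryos 4, 7 and 9 lay at or below 17.15, and both sisters of embryos 1, 3, 5, 8 and 10 lay at or above 17.29, while the sisters of embryo 2 fell on either side at 17.40 (2a) and 16.93 (2b). Only 1 of the 8 steps between neighbours in this order, that between embryos 2 and 3, was larger than the sister SD of 0.22. With 2 sisters per embryo that SD equals the standard error of a difference between embryo means. A step above it therefore does not show that embryos 2 and 3 differed.

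The difference between embryos in Bcl2l10 had an adjusted p of 0.103 in limma over all genes above background. Across the alternative settings its adjusted p ranged between 0.0735 (without embryo 2) and 0.294, and none of them reached 0.05. Sisters differed on average by 0.29 ± 0.12 log2 (SD, n = 9 pairs), a ratio of 1.22, against 1.31 for non-sisters, and the widest pair was 1.39-fold apart (embryo 2). The sisters of Bcl2l10 were not closer than limma's intensity trend gives for genes of like signal. The sister SD of 0.22 exceeded the value of 0.15 from that trend, which held for no other member above background. Of all genes above background 41.6% lay below the trend, so most exceeded it as well. The test for a spread above the trend was uninformative, so no excess is claimed for Bcl2l10.

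The embryo that was lowest for Bcl2l10, embryo 7, was also lowest for Oosp1, an oocyte-secreted protein gene, for Bmp15, an oocyte growth factor, and for the cleavage-stage genes Zscan4c, Zscan4d and Zscan4f, 5 of the 10 oocyte and 2-cell markers. Oosp1 and the 3 Zscan4 genes differed between embryos (adjusted p between 0.00465 and 0.0176, limma), and Bmp15 had an adjusted p of 0.227. The highest embryo was embryo 8 for Bcl2l10 and for the 3 Zscan4 genes, embryo 5 for Oosp1 and embryo 2 for Bmp15. Over the 18 blastomeres Pearson's r with Bcl2l10 was 0.65 for Oosp1, 0.53 for Zscan4d, 0.52 for Bmp15, 0.42 for Btg4 (an adaptor for maternal mRNA decay), 0.38 for Zscan4f and 0.34 for Zscan4c. It was weaker for Nlrp5 (0.21), Gdf9 (0.18) and Dppa3 (0.081) and negative for Zp3, a zona pellucida protein (-0.32). Over the 9 embryo means it lay between -0.34 (Zp3) and 0.82 (Oosp1). These are descriptions, since sisters share an embryo and all values share the normalisation between arrays.

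Mcl1 encodes a short-lived pro-survival protein that early mouse embryos need. Its signal was 7.57 in the lowest blastomere (2a), 8.70 in the median and 9.48 in the highest (7b), with a mean of 8.73 ± 0.46 (SD, n = 18). Blastomere 2a stood apart from its sister 2b, which had 8.73, by 2.23-fold, and no other of the 54 sister comparisons among the 6 members above background exceeded 2-fold (1.85%, against 18.9% of the comparisons over all genes above background). In the other 8 pairs the Mcl1 sisters differed by 0.49 log2 or less. The embryo means ordered as 2, 8, 10, 9, 5, 4, 3, 7 and 1, between 8.15 in embryo 2 and 9.34 in embryo 1, a 2.29-fold range that was the widest of the members.

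All 4 blastomeres of embryos 1 and 7 had Mcl1 signals at or above 9.20, and the other 14 lay at or below 8.88. The array spread, taken as the interquartile range of an array's deviations from the gene medians, had a median of 0.64 over all arrays. It was 0.815 for 1a, 0.62 for 1b, 0.725 for 7a and 0.79 for 7b. The widest array was 5b at 0.835, with 5a at 0.70, and Mcl1 there was 8.59 (5b) and 8.83 (5a). Array spread had an r of 0.46 with Mcl1 (n = 18), the highest of the members. Its part in the Mcl1 signal was not tested. Sisters had a ratio of 1.25, against 1.43 for non-sisters, so the mean log2 difference of sisters was 63.5% of that of non-sisters, the lowest share among the 6. The difference between embryos nevertheless gave an adjusted p of 0.326 in limma, with alternatives between 0.146 and 0.514. The lowest of these came without blastomere 2b, a setting in which embryo 2 is represented by the low blastomere 2a alone. Mcl1 and Bcl2l10 did not order the embryos alike, as embryo 7 was lowest for Bcl2l10 and next to highest for Mcl1.

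Bcl2l1 encodes Bcl-xL, a pro-survival protein of the outer mitochondrial membrane. Its signal was 8.87 in the lowest blastomere (9b), 9.43 in the median and 9.96 in the highest (2a), with a mean of 9.44 ± 0.31 (SD, n = 18). Embryo means lay between 9.18 in embryo 7 and 9.82 in embryo 1, a 1.56-fold range, and none of the 8 steps between neighbouring embryos exceeded the sister SD of 0.32. Sisters were farther apart than non-sisters, with a ratio of 1.32 against 1.28, and the blastomere with the highest signal (2a) had a sister 1.66-fold lower. The difference between embryos had an adjusted p of 0.861 in limma (0.747 to 0.937 across alternatives).

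Bcl2, the founding pro-survival gene of the family, was below background at 5.43 ± 0.20 (SD, n = 18), with 5.12 in the lowest blastomere (8a), 5.39 in the median and 5.85 in the highest (1a). Only blastomere 1a exceeded the threshold. Its signal followed the median of the array (r = 0.71 over 18 blastomeres), which is the level that mostly unexpressed probes take on that array, and no order of embryos is read from it. Its ratio was 1.14 between sisters and 1.18 between non-sisters.

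Of the effectors, Bak1 was below the threshold in all 18 blastomeres, between 4.60 (8a) and 5.15 (1a), with a mean of 4.89 ± 0.14 (SD, n = 18). Its correlation with the array median was the highest of the members (r = 0.81), and its ratio was 1.12 between sisters and 1.12 between non-sisters. A signal below the threshold does not show that the mRNA was absent. Bok, a relative of Bax and Bak1 whose protein is turned over by the proteasome, was above background at 6.22 ± 0.20, with 5.79 in the lowest blastomere (5b), 6.20 in the median and 6.55 in the highest (1a), and 17 of 18 blastomeres exceeded the threshold. Bok sisters had a ratio of 1.18, against 1.17 for non-sisters, and its embryo means lay between 5.96 in embryo 5 and 6.43 in embryo 10 (adjusted p 0.772 in limma, 0.596 to 0.901 across alternatives). Bok thus differed least between sisters among the 6, but it lay only 0.42 log2 above the threshold and had an r of 0.43 with the array median.

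**Figure D2:**
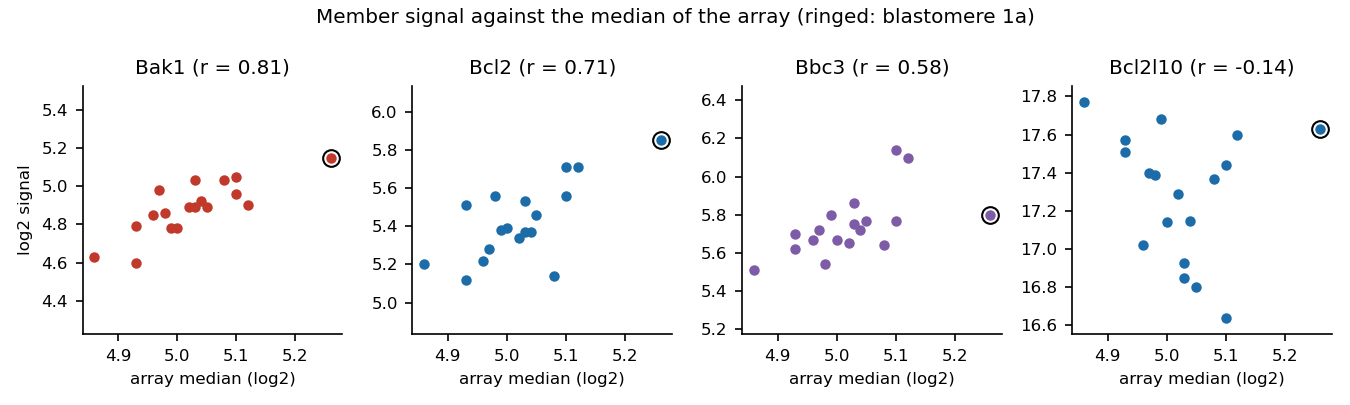
Log2 signal (y axis) against the median log2 signal of all probes on the same array (x axis) for Bak1, Bcl2, Bbc3 and Bcl2l10 in the 18 blastomeres, with blastomere 1a ringed. The 3 genes below background follow the array median (r = 0.81, 0.71 and 0.58), and Bcl2l10 does not (r = -0.14).

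The BH3-only genes lay near the threshold. Bid, whose protein links death receptors to mitochondria once cut by caspase-8, had 5.61 in the lowest blastomere (9b), 5.86 in the median and 6.82 in the highest (3b), with a mean of 5.97 ± 0.35 (SD, n = 18), and 12 of 18 blastomeres exceeded the threshold. The highest blastomeres were 3b (6.82), 1a (6.79) and 8b (6.37), and their sisters had 5.95 (3a), 6.14 (1b) and 5.95 (8a). Blastomere 1b was the next highest, and embryos 1, 3 and 8 had the highest embryo means. Sisters had a ratio of 1.22, against 1.29 for non-sisters, and the pair of embryo 3 was widest at 1.83-fold. Embryo means lay between 5.67 in embryo 9 and 6.46 in embryo 1 (adjusted p 0.345 in limma, 0.154 to 0.528 across alternatives).

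Bik, a BH3-only gene whose protein resides largely at the endoplasmic reticulum, was the brightest of the 3 relative to the threshold. It had 5.90 in the lowest blastomere (8a), 6.43 in the median and 7.17 in the highest (9a), with a mean of 6.46 ± 0.35 (SD, n = 18), and all 18 blastomeres exceeded the threshold. Embryo 9 had the highest mean at 7.04 and embryo 8 the lowest at 6.12, a 1.90-fold range with no step between neighbours above the sister SD of 0.30. Bik sisters had a ratio of 1.30, against 1.32 for non-sisters, and the pair of embryo 10 was widest at 1.75-fold (adjusted p between embryos 0.475 in limma, 0.359 to 0.832 across alternatives).

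Bbc3, which encodes Puma and is a transcriptional target of p53, lay just outside the threshold with a mean of 5.75 ± 0.16 (SD, n = 18), a mean minus threshold of -0.055 log2, while Bid lay just inside at 0.17 log2. The lowest blastomere had 5.51 (5a), the median 5.72 and the highest 6.14 (10b). Both sisters of embryo 10 stood apart at 6.10 and 6.14, and the other 16 blastomeres lay at or below 5.86. The ratio was 1.08 between sisters and 1.13 between non-sisters, in signals below background. In the limma fit over all 30176 genes, in which the error leans on the spread of other genes of like signal, Bbc3 had an adjusted p of 0.604 between embryos. The arrays of embryo 10 had medians of 5.12 (10a) and 5.10 (10b), against 5.26 for 1a and at most 5.10 for the others, and the part of the array level in the Bbc3 signal was not tested.

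**Figure D3:**
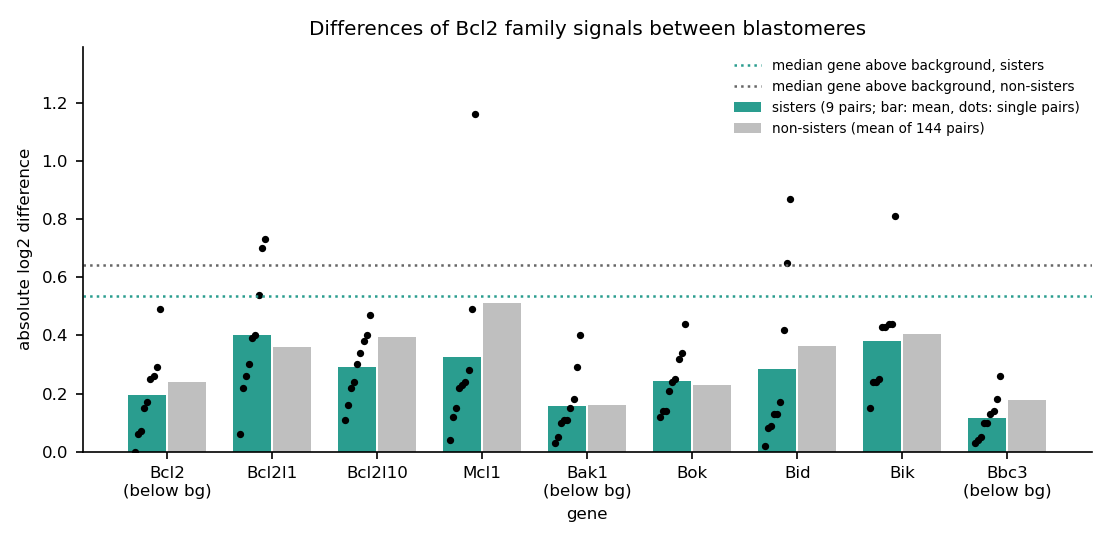
Absolute log2 difference (y axis) between sisters (coloured bars, mean of 9 pairs, each pair a dot) and between non-sisters (grey bars, mean of 144 pairs) for each measured member (x axis), with the median gene above background dotted. The single Mcl1 pair at 1.16 is the only dot above 1, and the bars of all members lie under the dotted lines.

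Among the 6 members above background, sisters were closer than non-sisters for 4 (Bcl2l10, Mcl1, Bid and Bik) and farther apart for Bcl2l1 and Bok, where 68.9% of all genes above background had closer sisters. The sister SD lay below the intensity trend for 5 of the 6, all but Bcl2l10, against 41.6% of all genes. The test for a sister spread above the trend called no gene at all (0% of 12885, with 538 genes and no member at an unadjusted p under 0.05), and its count for the members is therefore uninformative. Letters a and b did not differ for any gene above background either (0% of 12885 in limma, each pair being its own block, 587 genes and no member at an unadjusted p under 0.05). For Bcl2l10 the difference of a minus b was 0.12 log2 (SE 0.094), with a higher in 6 of 9 pairs.

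**Figure D4:**
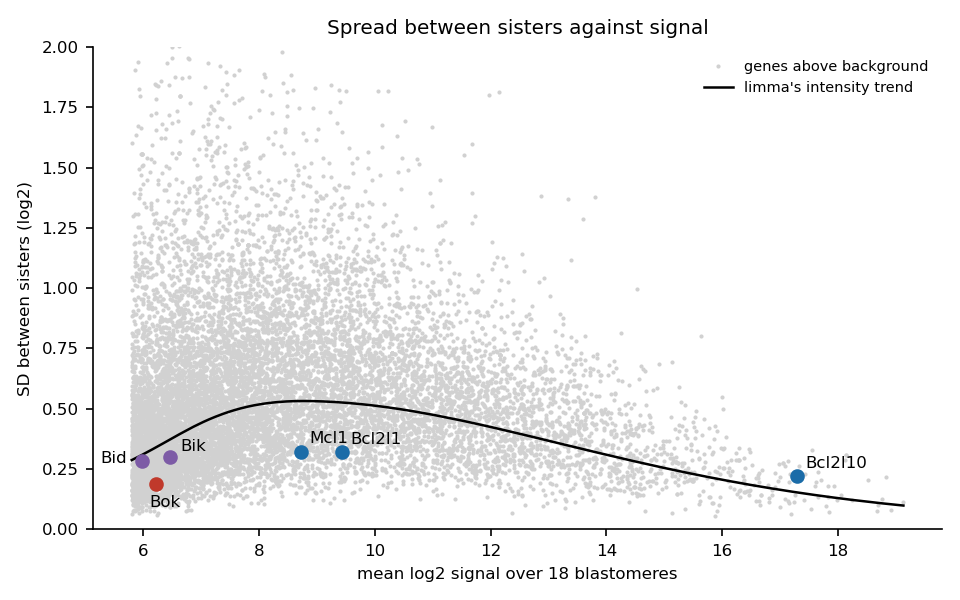
SD between sisters (y axis, log2) against the mean log2 signal over 18 blastomeres (x axis) for genes above background (grey) with limma's intensity trend (line), and the 6 Bcl2 family members above background (blue pro-survival, red effector, purple BH3-only). The axis ends at 2, which leaves out 57 genes, and Bcl2l10 (0.22) is the only member above the line (0.15).

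The members were also compared with each other as a description. Over the 18 blastomeres the highest r among the 6 was 0.43 (Bcl2l1 with Bid) and the lowest was -0.31 (Bcl2l10 with Bik, and Bcl2l1 with Mcl1). Over the 9 embryo means r lay between -0.49 (Bcl2l1 with Bik) and 0.70 (Bcl2l1 with Bid), with 0.68 for Bcl2l1 with Bcl2l10. Mcl1 and Bok had the same higher sister in 8 of 9 pairs, the most of any pairing among the 6. Their r was 0.0033 over the 18 blastomeres and -0.14 over the 9 embryo means.

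Other genes followed single members more closely. Searching 12884 genes above background for each member, the highest r over 18 blastomeres were with Cd160 (0.84), Gm9923 (0.83) and Mipep (0.83) for Bcl2l10, with Arih2 (0.84), Gm8696 (0.80) and Gm13311 (0.79) for Mcl1, and with Crtc1 (0.77), Cltb (0.76) and Gm15681 (0.75) for Bcl2l1. For Bok they were n-R5s58 (0.90), Gm24912 (0.80) and Hcls1 (0.80), for Bid Amacr (0.78), Mrpl46 (0.76) and Gadd45a (0.76), and for Bik Brca1 (0.77), Kansl2 (0.74) and Pmvk (0.73). These are descriptions over 18 arrays that share a normalisation, picked as the highest of many.

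The pathway around the family was read from 5 further lists with 49 genes. Of these, 43 were measured and 33 were above background, where 42.7% of all genes were. None of the 33 differed between embryos in limma after adjustment, against 5.81% of all genes. An unadjusted p under 0.05 was found for 2 of the 33 (6.06%, against 22.6% of all genes), Birc5 (survivin, a mitotic and anti-apoptotic protein, adjusted p 0.158) and Fis1 (a mitochondrial fission factor, adjusted p 0.209). The median ratio of the 33 genes was 1.35 between sisters and 1.45 between non-sisters, between the values of the members and those of all genes. The sister SD was below the intensity trend for 20 of the 33 (60.6%, against 41.6% of all genes).

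Of 15 other Bcl2 relatives, 13 were measured and 4 were above background, where 42.7% of all genes were. The closest between sisters was Bcl2l2, which encodes the pro-survival Bcl-w, with a ratio of 1.07 at a dim 6.17, and the farthest was Bcl2l13, a mitochondrial relative implicated in mitophagy, with a ratio of 2.05 and 5 of 9 pairs over 2-fold apart. Of 14 caspases and released mitochondrial factors, 12 were measured and 11 were above background. Casp9, the initiator that cytochrome c switches on, was closest at 1.09, again at a dim 5.89, and Casp6, an executioner, was farthest at 2.29 with 6 of 9 pairs over 2-fold apart. Cycs, the cytochrome c gene, was bright at 12.93 with a ratio of 1.63.

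All 5 inhibitors of apoptosis proteins were above background, the closest being Xiap (1.12), which blocks caspases directly, and the farthest Birc2 (1.83). All 9 outer-membrane partners and fission factors were above background as well, between Mff (1.22), which recruits the fission machinery, and Opa1 (1.82), which fuses inner membranes. The 4 measured regulators of Bcl2 family levels, of 6 listed, lay between Fbxw7 (1.28), part of a ubiquitin ligase for Mcl1, and Mdm2 (1.57), the ligase for p53.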

How the data were processed

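Each of 18 single blastomeres was hybridised to 1 array. According to labels and methods, targets came from the WT Pico kit, and the deposited log2 signals had been background-corrected, normalised between arrays and summarised per probe set by the authors with signal space transformation robust multiarray averaging. This equalises arrays, so differences in total RNA are not visible, and the number of arrays limits the precision. The sources used here give no genome build.

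Of 65956 probe sets (2.14 to 19.41), 30638 had 1 symbol in the platform annotation, 2176 several and 33142 none. Only the first were used, with the highest-mean probe for the 354 genes with several. The RefSeq gene table changed 0 symbols.

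Embryos were compared with limma 3.58.1 (R 4.3.3), fitting embryo as a factor (eBayes with an intensity trend, Benjamini-Hochberg over all genes above background, threshold 0.05). The study's methods name an analysis of variance, whose plain form was an alternative. Sister spread was tested against limma's prior variance at the same signal. The tests were run on simulated data first, where the spread test recovered none of the genes given a wider spread, so its counts carry no information. P-values measure the spread between these blastomeres. All 10 members were named, and of the other lists the genes called and those closest and farthest between sisters. Members and lists were chosen with earlier results of these data known. Python 3.11.15, numpy 2.4.6, pandas 2.3.3 and matplotlib 3.10.9 were used.

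Letters a and b were checked for pairing across embryos. Deviations of same-lettered blastomeres had a mean correlation of -0.0024 over 36 pairs of embryos (-0.11 to 0.094). No pattern shared by letter was thus seen over the genes above background at large, which does not exclude one in a few genes.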

Additional observations from a re-analysis of the deposited data

Results flagged for a closer look

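For each of the 9 measured genes, the 9 embryo means and the 9 absolute sister differences were searched for a highest or lowest value far from the next. Dixon's 95% criterion was used, which chance meets in about 1 in 20 sets of normally distributed values. Absolute differences are not normally distributed, so that rate need not hold for them. For Mcl1, the sisters of embryo 2 differed by 1.16 log2, and the next widest pair by 0.49. For Bik, the sisters of embryo 10 differed by 0.81 log2, and the next widest pair by 0.44. For Bbc3, embryo 10 had a mean of 6.12, and the next highest embryo had 5.79, in a gene whose mean was below background.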

How the results depend on the processing

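The embryo test of the 6 members above background was repeated in 210 combinations of member and setting. No adjusted p was under 0.05 in limma or in the plain analysis of variance. The mean sister difference moved by less than 1 SD of the pairs in all 78 combinations. Most of these could not have failed, since leaving out embryos cannot move such a mean by a full SD of the pairs, and each member had 1 probe. Only the alternative normalisations of the arrays could have moved the mean beyond that. The shifts were not all small. Without embryo 2 the Mcl1 mean fell from 0.33 to 0.22 log2, and without embryo 3 the Bid mean fell from 0.28 to 0.21 log2. The count of genes differing between embryos (749) was 403 without a background threshold, 353 by plain analysis of variance, and 422, 476, 497 and 467 without embryo 7, 8, 9 and 10. Leaving out each blastomere in turn gave between 438 and 838 genes. With the letter as a replicate block it was 572, a change of no call among the members. All alternatives were listed as planned, but earlier results of these data were known, so their choice cannot be called blind. One setting left out embryos 1 and 5, whose sisters differed most over all genes above background (median 0.54 and 0.49 log2). With 2 sisters per embryo, no embryo difference of the 6 members above background could be told from sister spread. The lack of a call does not show equal levels. Bcl2, Bak1 and Bbc3 were too dim for their ratios to be read as mRNA.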
